A study of Homo sapiens with 8 samples.

Results

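Of the 59679 genes annotated on the assembled chromosomes, 6 long noncoding RNA (lncRNA) genes that lie at or near strong RFX7 sites were examined: LINC02736, LINC03141, GASAL1, FPASL, MALAT1 and NEAT1. The list was selected on the ranks of nearby intervals in these same data, so the ranks below are descriptions and carry no test. An interval was assigned to a gene when its midpoint lay inside the gene or within 20 kb of either end. The assay was ChIP-seq, in which DNA bound by a protein is precipitated with an antibody and sequenced. It was done in U2OS cells, an osteosarcoma line of human origin that retains wild-type p53. Cells had received either 10 µM Nutlin-3a, which releases p53 from MDM2, or its solvent DMSO for 24 h. Of 8 samples, 2 replicates per treatment were precipitated with 3 µg of RFX7 antibody and 2 were input DNA. Each treatment is represented by 1 merged list of enriched intervals, with 213 intervals after DMSO and 304 after Nutlin-3a. No value below therefore has a replicate error, the read depth behind each list is unknown, and values are compared only within a list.

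RFX7 belongs to the regulatory factor X family of winged-helix proteins. Members of this family recognise the X-box, which is built from half-sites such as GTTGCC and GTTGCTA, alone or as an inverted pair. LncRNA genes are transcribed and spliced much like protein-coding genes, and many have promoters, or enhancers inside or beside them, that bind transcription factors. MALAT1 and NEAT1 are abundant nuclear lncRNAs of cancer cells: MALAT1 collects in nuclear speckles, and NEAT1 is the scaffold of paraspeckles and a known target of p53. GASAL1 carries the name of a growth arrest-associated lncRNA. The other members are annotated without a function that is drawn on here.

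FPASL was the one member whose sequence at an RFX7 interval could be read, because its DMSO interval lies inside the RefSeq window around the gene's start. The run below holds all 221 bases of that interval at chr7:76318008-76318228 (GRCh38.p14, plus strand, the strand of FPASL). Capitals mark the 7 bases that read GTTGCTA on the minus strand.
FPASL interval: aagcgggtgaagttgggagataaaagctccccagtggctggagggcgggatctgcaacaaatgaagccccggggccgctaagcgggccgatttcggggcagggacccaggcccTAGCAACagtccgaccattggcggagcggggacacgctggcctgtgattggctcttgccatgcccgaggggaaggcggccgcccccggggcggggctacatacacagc
The capitals begin at base 114 of the run, at position 76318121, and end at 76318127. Their centre was 6 bp from the midpoint of the DMSO interval and 79 bp from that of the Nutlin-3a interval. The last of them stood 120 bp before the start of FPASL. G and C made up 66.5% of the run and 68.3% of the whole 300-base window, against a median of 58.7% over all such windows.

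The same letters were then counted in every RefSeq start window, which spans 250 bases before to 50 after a start. On either strand GTTGCTA was present in 1001 of 35116 windows (2.85%), in 29 of the 146 windows that touched a Nutlin-3a interval (19.9%) and in 1 of the 13 that touched a DMSO interval. The last was the window of FPASL. The half-site GTTGCC was present in 4279 windows (12.2%), in 41 of the 146 (28.1%) and in 2 of the 13. The inverted pair, written GTT, any base, CC, any 2 bases, GG, any base, AAC, was present in 172 windows (0.490%), in 1 of the 146 and in 0 of the 13. This pattern has CC where GTTGCTA has CT, so pairs that include GTTGCTA, or that have another spacing, were not counted. A match of the inverted pair can include a match of GTTGCC, and windows of neighbouring starts can share bases. The windows of LINC02736, of LINC03141 and of both MALAT1 starts held none of these letters, but none of those windows touched an interval. These matches are descriptions of letters, not measured sites.

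GTTGCTA lay inside a Nutlin-3a interval at 23 places in start windows, at a median of 63 bp from the interval's midpoint. FPASL was the seventh of these by the rank of its interval, and the only one whose letters also lay inside a DMSO interval. Only 13 of the 35116 windows touched a DMSO interval, and FPASL was selected on its intervals, so nothing is read from this. For 6 of the 23 the window belonged to an lncRNA gene, and at SLC2A1-DT it overlapped the window of the protein-coding gene SLC2A1. These 6 are shown to let the bases around the half-site of FPASL be compared, read in the direction of GTTGCTA, in capitals, with 10 bases on either side.
FPASL, minus strand: tggtcggactGTTGCTAgggcctgggt
MAFTRR, minus strand: ggccgcggctGTTGCTAggcggatgga
LINC01778, plus strand: ggggcgggctGTTGCTAtgacagccca
SLC2A1-DT, plus strand: cacgctcgctGTTGCTAcctcttgcct
LOC105371573, plus strand: gccgcgcgcgGTTGCTAagagacgccg
LOC105370886, minus strand: ggctgtgggcGTTGCTAtggcagatca
Over all 23 places, the C and the T just before the half-site of FPASL were found in 15 and 14, and the second G after it in 17. The first G after it was found in 9, and at the remaining flanking positions the base of FPASL was found in 3 to 10. The C, the T and the second G were named because their counts were the highest. Flanks of GTTGCTA outside intervals were not counted, so no longer motif is read from these letters. The intervals at MAFTRR, LINC01778, SLC2A1-DT, LOC105371573 and LOC105370886 ranked 20, 30, 190, 215 and 229 of 304 by −log10 q after Nutlin-3a. None overlapped a DMSO interval, but only 22 of all 304 Nutlin-3a intervals did, so nothing is read from this.

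In the DMSO list, 5 of the 6 members had an interval within 20 kb, against 0.404% of all 18303 lncRNA genes and 0.424% of the 20037 protein-coding genes under the same rule. The same 5 had one in the Nutlin-3a list, against 0.956% and 1.76%. Because members were selected on such intervals, nothing is read from this difference. The 5 genes shared 4 sites, since MALAT1 and LINC02736 were assigned the same interval. At each of the 4 sites the DMSO and Nutlin-3a intervals overlapped. Over the whole lists 22 of 213 DMSO and 22 of 304 Nutlin-3a intervals overlapped one of the other list. Every DMSO interval down to rank 9, that of FPASL, was among them, so overlap was not particular to these sites. An interval of both lists lay within 20 kb of 23 lncRNA genes in all (0.126%). NEAT1 had none, the nearest midpoints being 42155 bp away after DMSO and 41904 bp after Nutlin-3a. The farthest interval inside the limit was that of MALAT1, at 10043 and 10294 bp, so no interval was close to the 20 kb limit on either side.

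**Figure D1:**
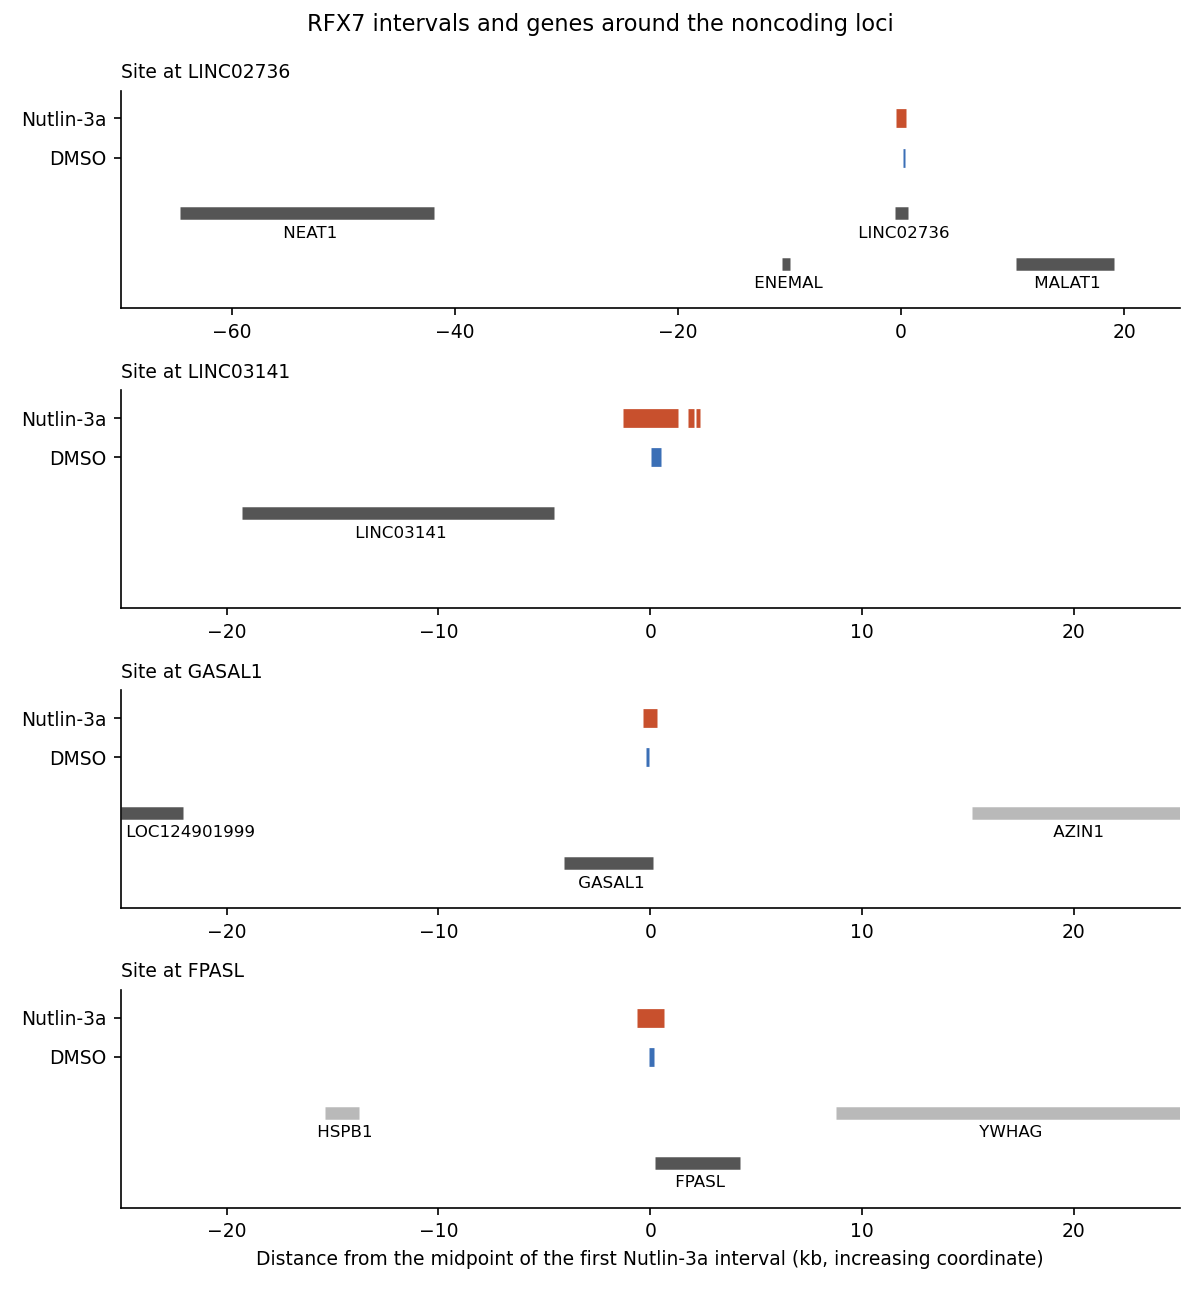
Intervals of the DMSO list (blue) and the Nutlin-3a list (orange) and annotated genes (dark bars, lncRNA; light bars, protein-coding) around the 4 sites. The x axis is the distance in kb from the midpoint of the highest-ranked Nutlin-3a interval; the first panel spans NEAT1, LINC02736 and MALAT1, and its intervals lie on LINC02736 and not on either neighbour.

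LINC02736 held the interval with the highest fold enrichment of the whole Nutlin-3a list. This gene of 1179 bp (gene ID 105369346) lies on chromosome 11, 65486908 to 65488086, on the minus strand. Its Nutlin-3a interval, 65487020 to 65487868, was 849 bp wide and lay wholly inside the gene, covering 72.0% of it. The authors' fold enrichment was 12.03, number 1 of 304, and the −log10 q was 64.9, number 3 of 304. After DMSO the interval at 65487589 to 65487801 was 213 bp wide and had an enrichment of 4.81-fold at a −log10 q of 9.50. It shared both values with 1 other interval, at number 5 of 213 by −log10 q and number 3 by fold enrichment.

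Both intervals were downstream of the annotated start of LINC02736, with midpoints 642 bp into the gene after Nutlin-3a and 391 bp after DMSO. The edge nearest to the start was 218 bp from it after Nutlin-3a and 285 bp after DMSO, so neither interval covered the start. The nearest protein-coding gene was 37639 bp from the Nutlin-3a midpoint and 37388 bp from the DMSO midpoint.

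MALAT1 (gene ID 378938; chromosome 11, 65497738 to 65506516, plus strand) begins 9652 bp beyond LINC02736. The interval in LINC02736 was the only one in the MALAT1 window in either list, 10294 bp upstream of the first MALAT1 start after Nutlin-3a. No interval overlapped MALAT1, its antisense gene TALAM1 or the small RNA MASCRNA that is cut from its end. ENEMAL, another lncRNA, lay on the other side at nearly the same distance, 9957 bp from the Nutlin-3a midpoint and 10208 bp from the DMSO midpoint. NEAT1 (gene ID 283131; 65422798 to 65445540) had a length of 22743 bp. Neither its body nor 20 kb around it held an interval midpoint.

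LINC03141 stood beside the widest interval of the Nutlin-3a list. The gene (gene ID 105369611; chromosome 12, 4011909 to 4026658, plus strand) has a length of 14750 bp, and all intervals assigned to it lay past its 3′ end. The first, 4029877 to 4032494, spanned 2618 bp and began 3219 bp past that end. Its fold enrichment of 9.35 was number 17 of 304, while its −log10 q of 65.0 was number 2. The DMSO interval, 4031205 to 4031673, was 469 bp wide, the second widest of that list. Its fold enrichment, at 4.03, was number 9 of 213, and its −log10 q, at 10.3, number 2.

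LINC03141 was the only member with more than 1 interval in a list. After Nutlin-3a, intervals of 258 and 187 bp followed the first at gaps of 487 and 93 bp, so that the 3 spanned 3643 bp. They were far weaker than the first, with fold enrichments of 3.74 and 3.77, −log10 q values of 8.68 and 9.55, and ranks 176 and 165. Neither overlapped a DMSO interval, which was usual, since only 22 of all 304 Nutlin-3a intervals did. Among all Nutlin-3a intervals, 8 groups of 3 or more neighbours lay within 1 kb of each other, and the DMSO list had 0 such groups. The first midpoint was 157786 bp from PARP11, a mono-ADP-ribosyltransferase gene, and 242577 bp from CCND2, which encodes cyclin D2. No other annotated gene had its body within 20 kb of LINC03141.

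GASAL1 (gene ID 401472; chromosome 8, 102807030 to 102811222) held its interval at the end with the higher coordinate. The Nutlin-3a interval, 102810779 to 102811420, was 642 bp wide, had 444 bp inside the gene and crossed that end, with its midpoint 123 bp from it. Its fold enrichment was 7.13, number 62 of 304, and its −log10 q 28.4, number 44. The DMSO interval, 102810891 to 102811053, was 163 bp wide and lay wholly inside the gene, with its midpoint 250 bp from the same end. By −log10 q, at 6.95, it was number 8 of 213, but by fold enrichment, at 3.58, it was number 26. AZIN1, the gene of antizyme inhibitor 1, was the nearest protein-coding gene, 15203 bp from the Nutlin-3a midpoint and 15330 bp from the DMSO midpoint.

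FPASL (gene ID 128266845; chromosome 7, 76318247 to 76322286, plus strand) had its annotated start inside its Nutlin-3a interval. The listed starts of LINC02736, LINC03141 and MALAT1 lay outside their intervals, and starts of GASAL1 and NEAT1 were not used here. The Nutlin-3a interval, 76317408 to 76318682, was 1275 bp wide, the eleventh widest of 304, and reached 435 bp past the start. Its fold enrichment was 6.95 and its −log10 q was 24.8. Both values were identical in 3 other intervals, which tied with it at number 58 by −log10 q and number 66 by fold enrichment. The DMSO interval, whose sequence is printed above, was 221 bp wide and ended 19 bp before the start. It was number 9 of 213 by −log10 q, at 6.90, and number 5 by fold enrichment, at 4.33. On one side the nearest protein-coding gene was YWHAG, which encodes a 14-3-3 protein, 8754 bp from the Nutlin-3a midpoint. On the other was HSPB1, a small heat shock protein gene, at 13753 bp.

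**Figure D2:**
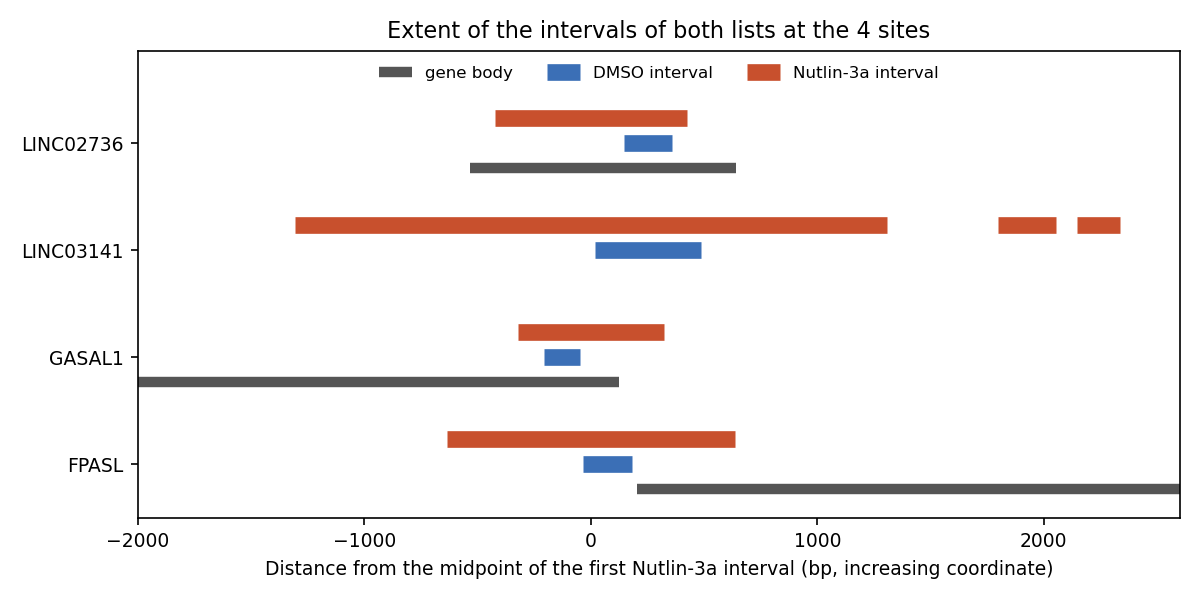
Extent in bp of the intervals at the 4 sites, centred on the midpoint of the highest-ranked Nutlin-3a interval, with the gene body in grey where it falls in the range. Each DMSO interval (blue) lies within the Nutlin-3a interval (orange), covering between 17.3% of it at FPASL and 25.4% at GASAL1. The same nesting holds at all 22 sites listed under both treatments.

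At all 4 sites the DMSO interval was contained in the Nutlin-3a interval, as it was at all 22 sites listed under both treatments. It covered 25.1% of the Nutlin-3a interval at LINC02736, 17.9% of the first one at LINC03141, 25.4% at GASAL1 and 17.3% at FPASL. The midpoints were 251, 254, 127 and 73 bp apart in that order. The Nutlin-3a interval extended beyond the DMSO interval unevenly. At LINC02736 it reached 569 bp further on the side of lower coordinates and 67 bp on the other, and at GASAL1 112 and 367 bp. At LINC03141 these extensions were 1328 and 821 bp, and at FPASL 600 and 454 bp. Over the whole lists the median width was 194 bp after DMSO and 339.5 bp after Nutlin-3a. Interval width can move with read depth, and the part of depth in these widths was not tested.

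**Figure D3:**
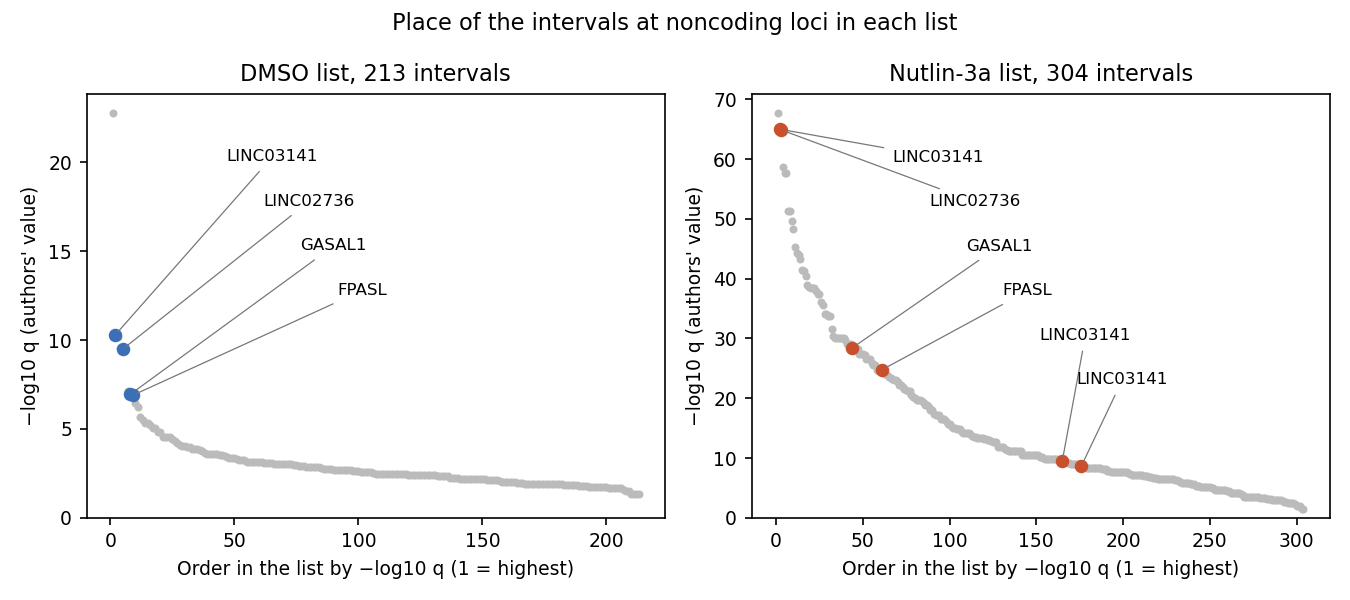
The authors' −log10 q of every interval against its order in the list, DMSO left and Nutlin-3a right, with the intervals at the noncoding loci coloured and named. After DMSO the 4 sites fall within the first 9 of 213; after Nutlin-3a 2 lie at the top, GASAL1 and FPASL at 44 and 58, and the small LINC03141 intervals at 165 and 176.

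In the Nutlin-3a list LINC02736 and LINC03141 stood far above GASAL1 and FPASL, whereas all 4 sites were near the top of the DMSO list. After DMSO they occupied ranks 2, 5, 8 and 9 by −log10 q, after Nutlin-3a ranks 2, 3, 44 and 58. Ranks from lists of different length show no change of binding. The list medians give the scale: the −log10 q was 2.49 after DMSO and 10.2 after Nutlin-3a, and the fold enrichment 3.06 and 4.71. Each first interval of a site exceeded both medians of its list, as its selection implies, whereas the 2 small Nutlin-3a intervals past LINC03141 were below both.

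The 4 sites had in common that they lay away from protein-coding genes. The rule did not use that distance, but loci listed for a noncoding gene can be expected to lie apart from coding ones, so it is given as a description. All 4 DMSO and 6 Nutlin-3a intervals had midpoints outside protein-coding genes. The nearest was 8681 bp away, that of FPASL after DMSO, and the farthest 160027 bp, a small interval past LINC03141. Over the whole lists, only 55 of 213 DMSO and 141 of 304 Nutlin-3a midpoints lay inside a protein-coding gene. In the whole Nutlin-3a list, 82 of 304 midpoints were more than 5 kb from any protein-coding gene, and the median distance was 54.5 bp. In the DMSO list they numbered 150 of 213, with a median of 109792 bp. Such distances were thus usual in the DMSO list, where only the LINC03141 interval lay farther away than the median. In the Nutlin-3a list all 6 intervals lay farther away than the median. The members were selected on rank, so their places among these remote intervals were favoured by the selection and are descriptions only. Among intervals more than 5 kb from protein-coding genes, the 4 sites took the first 4 places by −log10 q in the DMSO list. The order was LINC03141, LINC02736, GASAL1 and FPASL. In the Nutlin-3a list LINC03141 and LINC02736 took the first and second places of 82, GASAL1 the eleventh and FPASL number 18. By fold enrichment the order among remote intervals differed. LINC02736 was then number 1 in both lists and LINC03141 number 3 in both, FPASL was number 2 after DMSO and 22 after Nutlin-3a, and GASAL1 was number 11 and 20.

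**Figure D4:**
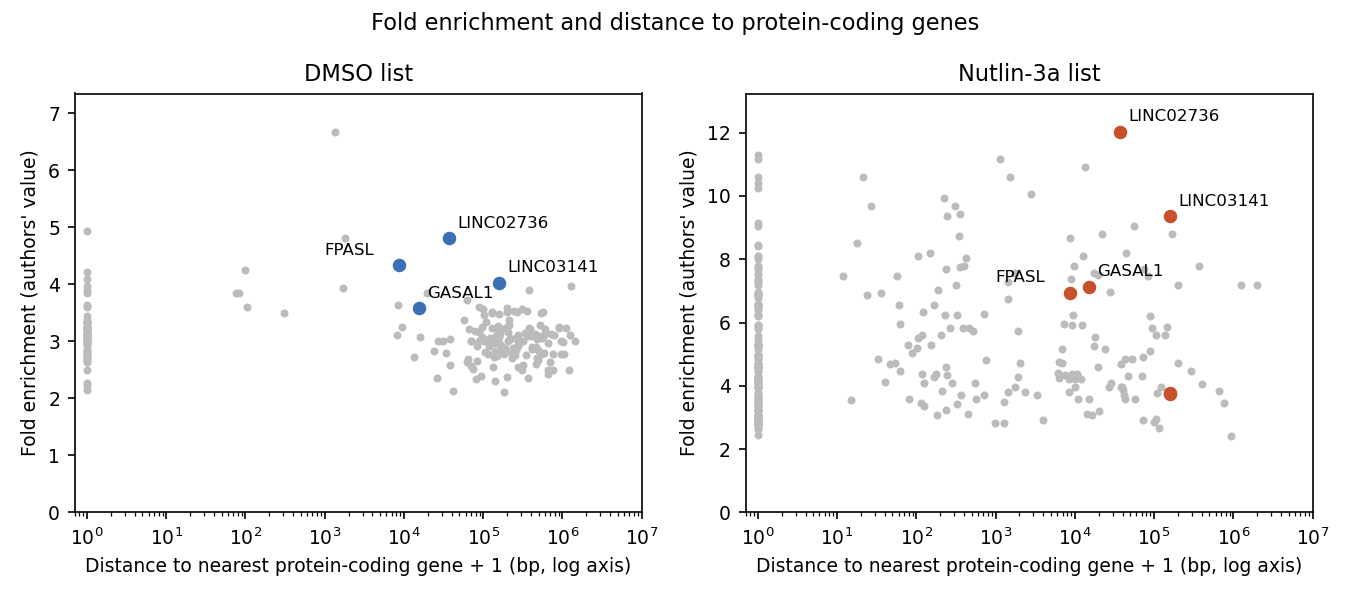
The authors' fold enrichment of every interval against the distance of its midpoint to the nearest protein-coding gene (bp + 1, log axis; points at 1 lie inside a gene), with the intervals at the noncoding loci coloured. The coloured points lie more than 8 kb from protein-coding genes, and LINC02736 is the highest point of the Nutlin-3a panel. In the DMSO panel only LINC03141 lies beyond the list's median distance of 109792 bp.

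Other lncRNA genes give the setting. Of 45 genes listed as widely studied lncRNA genes, among them p53-linked ones and hosts of small RNAs, 44 matched the gene table. They were matched by symbol without regard to biotype, and 0 had a DMSO interval within 20 kb. In the Nutlin-3a list 2 did, or 4.55%. Over all 18303 lncRNA genes the shares were 0.404% after DMSO and 0.956% after Nutlin-3a, and with 2 genes no difference is read. MIR22HG, the host gene of a microRNA, had an interval on chromosome 17, 1717281 to 1717634, 1247 bp from the gene, which was enriched 4.99-fold and ranked 145. For SNHG16, a host of small nucleolar RNAs, the interval at 76540801 to 76541338 on the same chromosome was 16695 bp away and ranked 89. Both intervals had their midpoint inside a protein-coding gene, unlike those at the 4 sites. Both ranked below the first interval of each of the 4 sites. Those sites were selected on rank, so nothing is read from this order.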

How the data were processed

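RFX7 ChIP-seq in U2OS cells was deposited as 1 merged narrowPeak list per treatment. Per the submitters' processing notes, MACS2 2.2.7.1, bedtools 2.29.2, SAMtools 1.10 and the build hg38 were used; the aligner, settings and the merging of replicates are not given in the sources used here. The authors deposited for each interval a fold enrichment (a linear ratio), a −log10 q and a score; the score and a further −log10 p column were not used. No summit is given, so the midpoint was used. Depth is unknown, and input and single-replicate values were not analysed here.

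Genes (body, all biotypes) and start windows came from RefSeq GRCh38.p14; all 6 members matched the gene table and 4 the start windows. Exons and introns were not assigned. Ranks give ties the better place. Distances are from the midpoint to the gene body, 0 inside. Shared means an overlap of at least 1 bp. All members were named, with the nearest protein-coding genes of their intervals and comparison-list genes with an interval; the name of 1 protein-coding neighbour is not reported here. Members and lists were chosen with earlier results of these data known. No test was run. Counting was tested on simulated intervals. Alternatives changed the window, how overlap and distance are defined, the lowest −log10 q kept, the ranking column and the joining of neighbours. Python 3.11.15 and pandas 2.3.3 were used.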

Additional observations from a re-analysis of the deposited data

How the results depend on the processing

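For 23 counts, ranks, distances and shares, 48 values were recomputed, and 35 stayed within 1.5 times the reported value. With a −log10 q of at least 10, 1 member, LINC03141, kept a DMSO interval, and 1 interval was left at the members in that list. Requiring 50% overlap of both intervals left 0 members with a shared interval, since each DMSO interval covers a small part of the Nutlin-3a one; midpoints within 100 bp left 1, FPASL. Ranked by fold enrichment, the first intervals at LINC02736, LINC03141, GASAL1 and FPASL were at 3, 9, 26 and 5 after DMSO, and those at LINC02736 and LINC03141 at 1 and 17 after Nutlin-3a. The share of all lncRNA genes with an interval was 0.710% within 50 kb in the DMSO list, and 0.628% within 5 kb and 1.62% within 50 kb in the Nutlin-3a list. A 5 kb window dropped MALAT1 and a 50 kb window added NEAT1, in both lists.

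No paired analysis was possible because replicates were merged before deposit, into 1 list per treatment; leaving out replicates was not run for the same reason. Distances to protein-coding start sites were not run.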

Other observations

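Of the 10 highest DMSO intervals by −log10 q, 8 had an lncRNA gene nearer to the midpoint than any protein-coding gene, against 59.6% of that list. The 4 listed sites are among these 8, and of the 6 other intervals 4 were of this kind, a share near that of the list. In 3 of those 4 the midpoint lay inside the lncRNA gene. Among the 10 highest Nutlin-3a intervals, those at LINC02736 and LINC03141 were the 2 of this kind, against 25.3% of that list. The following genes were picked after their values were seen. ADAMTSL4-AS1 held the midpoint of the first DMSO interval, CCND2-AS1 that of the seventh, and LOC105373043 that of the interval tied with LINC02736 for the fifth place. Unlike the 4 sites, these midpoints were close to protein-coding genes: 1334 bp from ADAMTSL4, 1710 bp from CCND2 and 1779 bp from TOB2. Of the 22 sites listed under both treatments, 8 were more than 5 kb from protein-coding genes, and 4 of those 8 were the sites at LINC02736, LINC03141, GASAL1 and FPASL.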
